A study of Mus musculus with 41 samples.

Results

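The 231 genes described here are the chromosome 8 genes that were well covered by 3′ end RNA sequencing of E14 mouse embryonic stem (ES) cells, in a study where genes of that chromosome stood higher in the line labelled KO3. They were chosen by place and level, as the rows of the deposited table whose gene lies on chromosome 8 (GRCm38, GENCODE M21) and whose mean over all 41 libraries was at least 40 CPM (reads scaled to the assigned reads of each library), or 137 to 229 reads per library. The chromosome itself was selected on its raised level in KO3 in these same libraries, so the KO3 minus KO2 level of the group is no finding. The table held 55487 genes, of which 4225 reached 40 CPM and 245 of these were on chromosome 8. Left out by name were 14 genes (ribosomal and respiratory chain proteins, a few immediate early, cadherin and collagen genes and Msmo1, Mvd and Nkd1). Of the 231 members, 230 were annotated as protein coding. Just inside the limit lay Herpud1 at 40.04 CPM and Nqo1 at 40.5 CPM, with KO3 minus KO2 differences of 0.52 and 1.27 on the log2 scale. Just outside lay Alg11 at 39.95 CPM and Klhdc4 at 39.9 CPM, with differences of 0.14 and 0.33.

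The libraries came from KO3 (11 libraries), KO2 (15 libraries) and the wild-type line titled PGG, called WT here (15 libraries). KO3 and KO2 are labelled as genetically depleted for Esrrb, which encodes an orphan nuclear receptor of the naive ES cell network. Each line was sampled in 2iL (the inhibitors CHIR99021 and PD0325901 with the cytokine LIF) and, after 1 day in plain N2B27 medium, on days 1, 3 and 5 of AloXR (activin A, XAV and BMS439 in N2B27), a medium used to derive formative stem cells. Each line had 3 libraries in 2iL and 4 libraries on each AloXR day; KO3 alone had fewer, with 2 libraries on day 3 and 2 on day 5. The labels do not say whether KO3 and KO2 are single clones, what was deleted, or whether libraries of a group came from separate cultures, so p-values measure the spread between these libraries, which may be technical.

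Assigned reads ranged from 3424064 to 5736053 per library with a median of 4581394. Esrrb was at 103 to 166 CPM in KO3, 52.0 to 56.7 CPM in KO2 and 309 to 434 CPM in WT in 2iL. On AloXR day 1 it was at 26.1 to 41.4 CPM in KO3, 1.64 to 5.52 CPM in KO2 and 12.1 to 17.7 CPM in WT. On day 3 it was at 6.17 and 4.87 CPM in KO3, 1.16 to 3.20 CPM in KO2 and 1.19 to 1.83 CPM in WT. The 3′ tags of the targeted gene thus did not follow the label of KO3 on these days. Whether they lie inside the deleted part is not stated. Pluripotent cell markers were present in every group, summing to 677 to 1654 CPM over 8 genes, although Pou5f1 itself averaged only 13.7 CPM. The 8 primitive endoderm markers summed to 13.7 to 62.3 CPM in KO3, 7.33 to 17.2 CPM in KO2 and 4.38 to 9.25 CPM in WT during AloXR. Over the same days 8 trophoblast markers summed to 38.2 to 69.8 CPM in KO3, 18.2 to 58.2 CPM in KO2 and 15.3 to 33.7 CPM in WT, and 10 fibroblast and feeder markers to 7.66 to 39.4 CPM in KO3, 21.9 to 103.5 CPM in KO2 and 11.2 to 51.9 CPM in WT. Each library contains RNA of many cells, so a change in the share of a cell type and a change in RNA per cell cannot be told apart.

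Mouse chromosome 8 carries genes of unrelated pathways, among them DNA replication factors, chromatin regulators, RNA decay factors and redox enzymes. Genes of a chromosome do not in general share a regulator, and each mostly follows the factors that bind its own promoter and enhancers. Gain of an extra copy of chromosome 8 is a known karyotype change of mouse ES cells in long culture; DNA was not analysed here, and its part in the values below was not tested.

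The members stood higher in KO3 than in KO2 as a group, by a similar amount in every medium and along the whole chromosome. Their median difference (KO3 minus KO2, log2(CPM + 1) scale) was 0.38 in 2iL, 0.38 on AloXR day 1, 0.33 on day 3 and 0.38 on day 5. The mean of the 4 times had a median of 0.36, a 1.29-fold higher level. It is given as a description with no test. Over the 3980 genes of at least 40 CPM on other chromosomes the median was -0.02.

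Of the 231 members, 182 were above KO2 at all 4 times, 34 at 3 times, 10 at 2 times and 5 at 1 time, and none was below KO2 at all 4. Being above KO2 at all 4 times applied to 17.9% of all genes tested and to 78.8% of the members. Every KO3 library lay above every KO2 library for 102 members in 2iL, where 7.39% of all genes tested did so. The same held for 149 members on day 1 (13.8% of all genes), 154 on day 3 (20.8%) and 163 on day 5 (23.3%). At all 4 times together the 2 lines did not overlap in this direction for 50 members, against 1.67% of all genes. By limma's test, 37 members were higher in KO3 in the mean of 4 times (16%, against 5.86% of all genes tested; Benjamini-Hochberg adjusted p below 0.05 and at least 1.5-fold). Because the choice of the chromosome used this contrast, nothing is read from these counts.

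Single libraries showed the same picture. The median over the members of log2(CPM + 1) minus the WT mean at the same time was 0.16, 0.23 and 0.35 in the 3 KO3 libraries in 2iL, against -0.16, -0.10 and -0.03 in the 3 KO2 libraries. On day 1 it was 0.29 to 0.30 in KO3 and -0.14 to -0.06 in KO2. On day 5 it was 0.51 and 0.52 in KO3, and 0.11 to 0.14 in KO2. Within each time, every KO3 library lay above every KO2 and every WT library. The members took 3.39% to 3.81% of the reads in KO3 libraries, 2.74% to 3.10% in KO2 libraries and 2.40% to 3.29% in WT libraries.

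**Figure D1:**
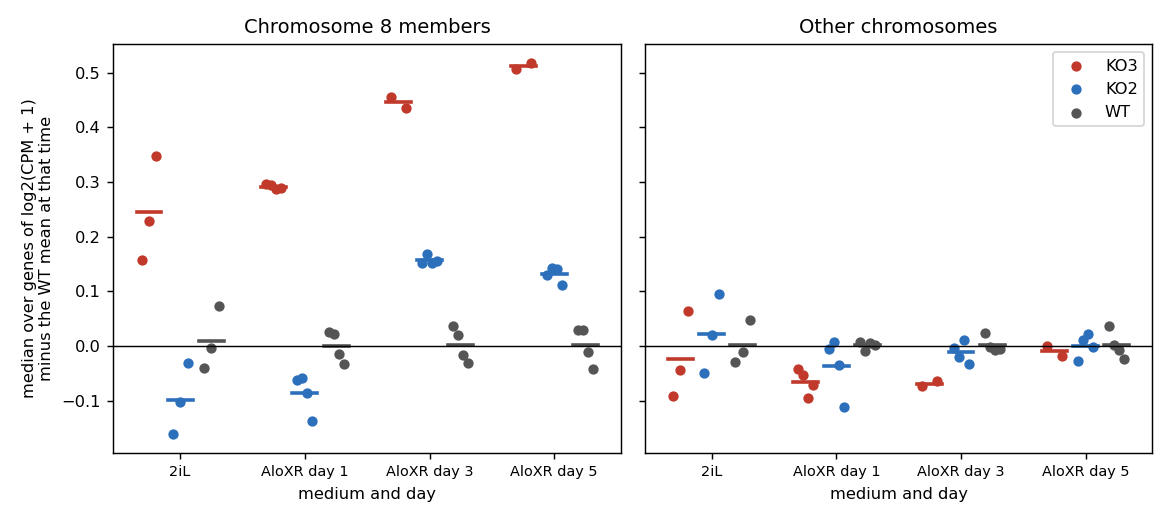
Median over genes of log2(CPM + 1) minus the WT mean at the same time, 1 point per library and a line at each group mean, for the 231 members (left) and for genes of at least 40 CPM on other chromosomes (right), by medium and day. KO3 libraries sit at 0.16 to 0.52 on the left, above KO2 and WT at each time, and at -0.10 to 0.06 on the right.

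Along the chromosome the raised level had no gap. In 11 runs of consecutive members (20 each, 31 in the last) the median KO3 minus KO2 difference lay between 0.31 and 0.47. The highest run, 0.47, began at Gtf2e2, and the lowest, 0.31, reached from Gadd45gip1 to Sall1. The first run, Arhgef18 to Ckap2 at the start of the chromosome, was at 0.46 and the last, Cotl1 to Itgb1, at 0.34. Neighbouring members did not share their values: across 230 neighbouring pairs Pearson's r was -0.14, a description over genes that share libraries. Members on the forward strand had a median of 0.40 (121 genes) and those on the reverse strand 0.34 (110 genes).

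**Figure D2:**
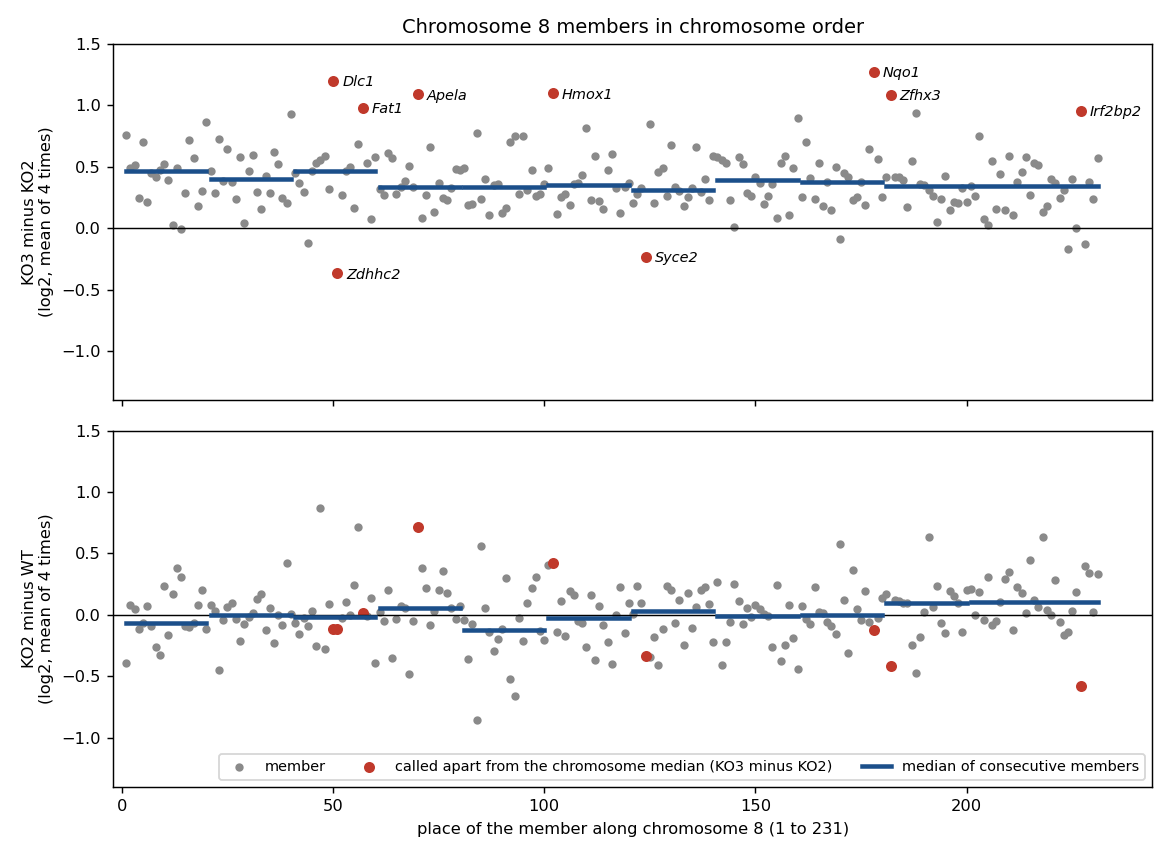
Difference of each member in chromosome order (log2, mean of 4 times), KO3 minus KO2 above and KO2 minus WT below; red points are the 9 members called apart from the chromosome median in KO3 minus KO2 and blue bars are medians of consecutive members. In KO3 minus KO2 the bars lie between 0.31 and 0.47 from end to end, and in KO2 minus WT between -0.12 and 0.11.

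Chromosome 8 was not the only chromosome with a median off the rest. Chromosome 6 followed at 0.24 (222 genes of at least 40 CPM), then chromosomes 2, 4, 13 and 1 at 0.16, 0.14, 0.13 and 0.12. The 14 remaining chromosomes ran from -0.14 to -0.02. On chromosomes 2, 4, 13 and 1 the KO2 minus WT median was -0.21, -0.18, -0.23 and -0.08, whereas it was 0.06 on chromosome 6 and 0.01 on chromosome 8. The 2 comparisons share the KO2 libraries, so their values are set side by side only. In KO3 minus WT the chromosome 6 median was 0.23 in 2iL and 0.29, 0.37 and 0.36 on days 1, 3 and 5. The chromosome 8 median was 0.25 in 2iL and 0.29, 0.44 and 0.51 on those days. Chromosome 6 was thus close to chromosome 8 against WT in 2iL and on day 1, and lower on days 3 and 5. Against KO2 the order of days differed. There the chromosome 6 median was 0.149 in 2iL and 0.301, 0.334 and 0.206 on days 1, 3 and 5. The chromosome 8 median was 0.365 in 2iL and 0.376, 0.327 and 0.372 on those days, so the 2 chromosomes were alike on day 3.

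**Figure D3:**
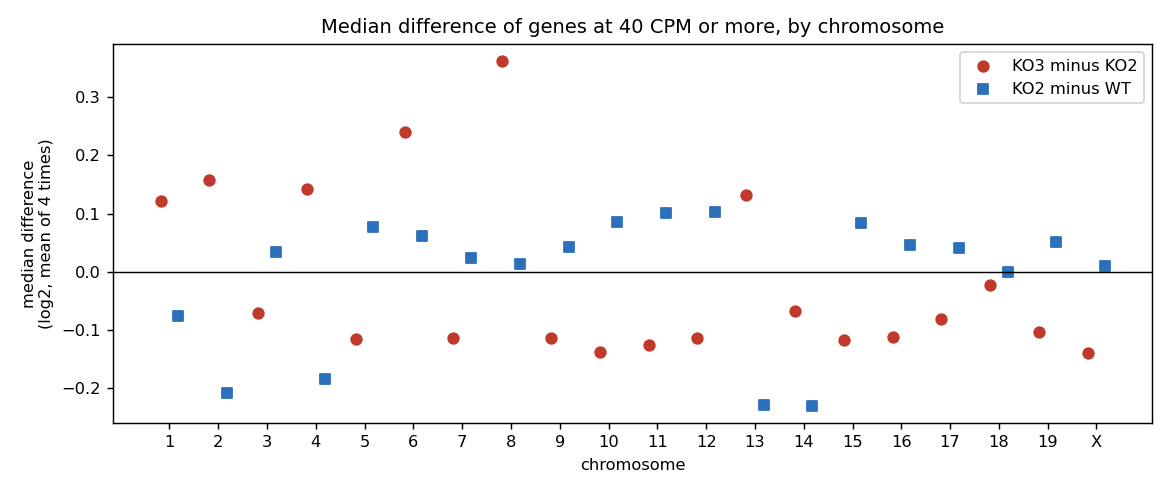
Median difference per chromosome over genes with a mean of at least 40 CPM (log2, mean of 4 times), circles for KO3 minus KO2 and squares for KO2 minus WT. Chromosome 8 has the highest circle at 0.36 and a square at 0.01.

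Most members lay close to the chromosome median. The spread of the members' differences was 0.24 (SD over 231 genes), and genes on other chromosomes spread by 0.27 around their own chromosome medians. Of the members, 77 lay within 0.1 of the chromosome median and 191 within 0.29. At or below 0.18, the midpoint between 0 and the chromosome median, were 36 members, and at 0.72 or more 19. Members with more reads lay closer: the SD was 0.18 for the 117 members of 80 CPM or more and 0.29 for the 114 below 80 CPM. The spread was also 0.29 for the 114 members called changed in WT between 2iL and any AloXR day, against 0.18 for the 117 not called.

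As examples, the 8 members with most reads were taken among those within 0.1 of the median, so the range of their mean differences follows from that choice. Smarca5, the ATPase of the ISWI chromatin remodelling complexes (chr8:80698507-80739497, reverse strand), had 456, 465 and 582 CPM in KO3 and 336, 370 and 421 CPM in KO2 in 2iL. AloXR day 1 gave 468, 441, 438 and 424 CPM in KO3 and 339, 327, 334 and 307 CPM in KO2, and day 5 gave 508 and 538 CPM in KO3 and 347, 337, 345 and 341 CPM in KO2. The 2 lines did not overlap at any of these times. Its mean difference was 0.43 ± 0.05 (SE). Vps35, a core subunit of the retromer sorting complex, was at 0.33 ± 0.04, with 456, 476 and 449 CPM in KO3 and 347, 357 and 340 CPM in KO2 in 2iL. Psmd7, a lid subunit of the proteasome, was at 0.41 ± 0.06, and Ing1, a reader of histone methylation, at 0.42 ± 0.06. Calr, the calcium-binding chaperone calreticulin, was at 0.28 ± 0.07, Hmgb2 at 0.28 ± 0.08, Ankrd11 at 0.46 ± 0.07 and Cfdp1 at 0.26 ± 0.05.

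By function, 144 members fell in 12 lists, and every list had a median above 0. The 11 DNA replication and repair members had the lowest, 0.21, with 7 of 11 above KO2 at all 4 times. Among them Gins2, a subunit of the GINS complex of the replicative helicase, was at 0.07 ± 0.07, the licensing factor Cdt1 at 0.11 ± 0.06 and the helicase subunit Mcm5 at 0.12 ± 0.08, whereas Orc6 of the origin recognition complex was at 0.30 ± 0.08 and E2f4 at 0.41 ± 0.12. Mcm5 had 281, 268, 277 and 263 CPM in KO3 and 283, 276, 235 and 258 CPM in KO2 on day 1, and the lines overlapped. No list member here was called below or above the chromosome median.

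The 10 mitochondrial members had a median of 0.26, with 6 of 10 above KO2 at all 4 times. Tomm20, an import receptor of the outer membrane, was at -0.13 ± 0.07, the ADP/ATP carrier Slc25a4 at 0.08 ± 0.07 and the aminotransferase Got2 at 0.11 ± 0.06, against 0.51 ± 0.08 for the import motor component Timm44 and 0.65 ± 0.08 for Cyb5b. Translation and ribosome biogenesis (14 members) had a median of 0.26, with the ribosome biogenesis factor Mak16 at 0.20 ± 0.07 and the lysyl-tRNA synthetase Kars at 0.23 ± 0.06. Ubiquitin and proteasome (8 members) was also at 0.26, with 6 of 8 above KO2 at all 4 times and the deubiquitinase Otud4 at 0.36 ± 0.08. None of these lists had a member called apart in the mean of 4 times.

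Chromatin and transcription, with 24 members, had a median of 0.43 and 20 above KO2 at all 4 times. The histone acetyltransferase Kat6a was at 0.65 ± 0.08, the methyltransferase Nsd3 at 0.60 ± 0.08 and the core binding factor subunit Cbfb at 0.70 ± 0.08, whereas the insulator protein Ctcf was at 0.18 ± 0.07 and Champ1 at -0.005 ± 0.07. RNA processing and decay (19 members) had a median of 0.37, from 0.16 for Lsm1 to 0.94 for the helicase Ddx19b; Ddx39 was at 0.22 ± 0.08 and Arglu1 at 0.21 ± 0.07. Vesicle, lysosome and autophagy genes (17 members) were at 0.39 with 16 of 17 above KO2 at all 4 times, Lamp1 at 0.52 ± 0.08 among them. Endoplasmic reticulum and folding genes (10 members) were at 0.35, with the chaperone Dnaja2 at 0.26 ± 0.05.

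The highest medians were 0.50 for cytoskeleton and adhesion (11 members), 0.47 for signalling (7 members) and 0.46 for metabolism, redox and transport (11 members). The integrin subunit Itgb1 was at 0.57 ± 0.07 and the centriolar satellite protein Pcm1 at 0.50 ± 0.08. In signalling the adaptor Gab1 was at 0.81 ± 0.10 and the kinase subunit Csnk2a2 at 0.09 ± 0.04. In the redox list Gsr, glutathione reductase, was at 0.93 ± 0.09 and Prdx2 at 0.46 ± 0.05, while the neighbouring metallothioneins Mt1 and Mt2, which bind zinc and copper, were at 0.01 ± 0.19 and 0.23 ± 0.22. Bag4, a co-chaperone that restrains death receptor signalling, was at 0.30 ± 0.05.

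Which members departed from the level of the chromosome was tested by taking the chromosome median from each gene's own KO3 minus KO2 difference, a distance that the choice of the chromosome did not use, though it comes from the same libraries. A member was called apart at a limma p-value, adjusted over all 16967 genes by Benjamini-Hochberg, below 0.05 and a distance of at least 0.58 (1.5-fold). By this rule 2 members lay below and 7 above. Among all genes tested 3.36% lay below their chromosome median and 5.02% above it, and among genes of at least 40 CPM on other chromosomes 0.854% and 2.51%, so the members' 0.866% and 3.03% were close to the share elsewhere. With no size minimum, an alternative added after seeing the data, 37 lay below and 44 above, or 16% and 19% of the members against 13.9% and 17.7% of all genes tested.

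Zdhhc2, which encodes a palmitoyltransferase of membrane proteins (chr8:40423815-40510268, forward strand), was lowest. It had 10.7, 9.01 and 8.37 CPM in KO3, against 12.3, 17.5 and 11.7 CPM in KO2 in 2iL. AloXR day 1 libraries had 27.2, 29.1, 32.8 and 35.2 CPM in KO3, against 45.2, 55.4, 51.9 and 46.6 CPM in KO2. Day 5 libraries had 67.4 and 79.9 CPM in KO3, against 97.5, 94.9, 98.2 and 98.1 CPM in KO2. All KO3 libraries were below all KO2 libraries at these 3 times, while on day 3 the lines overlapped (65.6 and 73.2 CPM in KO3, 61.1 to 67.2 CPM in KO2). Its mean difference was -0.37 ± 0.07 (SE) and its distance from the chromosome median -0.73 (limma adjusted p = 1.5e-10).

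The members on either side of Zdhhc2 followed the chromosome or exceeded it: Dlc1 was at 1.20 ± 0.14 and Cnot7, a deadenylase subunit, at 0.27 ± 0.06. Zdhhc2 overlaps Cnot7 on the opposite strand by 17729 bases, and Cnot7 had 118 CPM on average against 57.7 CPM for Zdhhc2. Whether the counting used strand is not given in the sources used here, so the reads of these 2 genes could not be separated with certainty. In WT, Zdhhc2 was higher on day 5 than in 2iL by 2.82 ± 0.14 (limma adjusted p = 6.65e-22).

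Syce2, a component of the central element of the synaptonemal complex of meiotic chromosomes, was the other member below (chr8:84872111-84888221, forward strand). In 2iL it had 44.9, 48.1 and 80.4 CPM in KO3, against 36.8, 40.4 and 43.7 CPM in KO2, with every KO3 library the higher. On day 3 it had 34.5 and 31.6 CPM in KO3 and 48.9, 48.4, 40.6 and 32.4 CPM in KO2, with an overlap. By day 5 it had 27.3 and 27.4 CPM in KO3, against 61.9, 56.8, 45.6 and 43.1 CPM in KO2, with every KO3 library the lower. Its mean difference was -0.23 ± 0.08 and its distance from the chromosome median -0.59 (limma adjusted p = 4.06e-07), just past the size limit. The call was lost when any of 11 single libraries was left out (-0.55 to -0.58) and under edgeR and DESeq2 (-0.58 in both). Syce2 overlaps Gcdh on the opposite strand, a gene at 16.7 CPM. Its neighbours Farsa and Dnase2a were at 0.33 ± 0.05 and 0.85 ± 0.13.

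For Syce2 the window of 300 bases around 1 of its 2 annotated starts is shown because the gene went against the chromosome. It lies at chr8:84872008-84872307 on the forward strand (RefSeq, GRCm38.p6). The capitals mark a match to the E2F site TTTCCCGC, searched on both strands and here read on the reverse strand. The window of the other start, at chr8:84871861-84872160, held no match and is not shown. That motif was found in 1.07% of all 32851 RefSeq promoter windows and in 2.96% of the 203 windows that matched 164 of the 231 members. Of the 6 members with a match, Syce2 alone was called apart. A match is a description of letters.
Syce2 promoter: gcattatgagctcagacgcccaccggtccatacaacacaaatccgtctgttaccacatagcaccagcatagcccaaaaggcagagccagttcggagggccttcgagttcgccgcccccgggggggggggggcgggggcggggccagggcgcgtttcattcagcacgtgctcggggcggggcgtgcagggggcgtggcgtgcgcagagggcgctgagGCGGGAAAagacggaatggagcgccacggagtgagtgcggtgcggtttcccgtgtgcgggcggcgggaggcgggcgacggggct

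Zdhhc2 and Syce2 were among 8 members at or below 0 in KO3 minus KO2. The others, Tsnax, Tomm20, Gm10131, Psmb10, Champ1 and Kcnk1, were at -0.17 ± 0.09, -0.13 ± 0.07, -0.12 ± 0.19, -0.08 ± 0.09, -0.005 ± 0.07 and -0.00 ± 0.13, named after their values were seen. Of these, Tomm20, Psmb10 (an immunoproteasome subunit) and Champ1 were higher in KO2 than in WT, by 0.40 ± 0.06 (limma adjusted p = 3.54e-07), 0.58 ± 0.08 (limma adjusted p = 2.01e-07) and 0.31 ± 0.06 (limma adjusted p = 5.33e-05), and in KO3 minus WT they were at 0.27 ± 0.07, 0.49 ± 0.09 and 0.31 ± 0.07. Tomm20, Psmb10 and Champ1 were picked for a low KO3 minus KO2 difference, which shares the KO2 libraries with KO2 minus WT. Their p-values are therefore no independent support. Zdhhc2, Syce2, Tsnax and Gm10131 were the 4 of the 231 below 0 against both other lines. With WT in place of KO2 as the control line, Syce2, Zdhhc2 and Tsnax were called below the chromosome median (1.3% of the members, against 5.26% of all genes tested).

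At least 1 time showed every KO3 library below every KO2 library for 10 members, a pattern seen for 33.6% of all genes tested: Zdhhc2, Slc25a4, Palld, Syce2, Usb1, Psmb10, Gins2, Cdt1, Acta1 and Tomm20. At 2 or more times it held for 2 of them.

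The 7 members above the chromosome median included a pair of redox enzymes. The 40 CPM limit counted the KO3 libraries too, so a gene could become a member through a high level in KO3. Calls above the median are thus not independent of the choice of members. Nqo1 was just inside the limit at 40.5 CPM, and among members of at least 80 CPM 0 were called above. Nqo1, a quinone reductase and a standard target of the oxidative stress factor NRF2 (chr8:107388225-107403206, reverse strand), had 168, 231 and 158 CPM in KO3, against 43.5, 59.7 and 69.0 CPM in KO2 in 2iL. Its AloXR day 1 values were 34.2, 38.5, 32.6 and 33.2 CPM in KO3, against 22.3, 21.6, 12.1 and 16.4 CPM in KO2. Its day 5 values were 42.8 and 33.97 CPM in KO3, against 18.4, 17.98, 13.1 and 14.7 CPM in KO2. The lines did not overlap at any of the 4 times. Its difference was 1.27 ± 0.11, and its distance from the chromosome median 0.91 (limma adjusted p = 6.8e-09).

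Hmox1, the heme oxygenase that degrades free heme and another NRF2 target (chr8:75093621-75100589, forward strand), had 72.3, 72.3 and 50.4 CPM in KO3, against 34.2, 38.4 and 36.0 CPM in KO2 in 2iL. Its day 5 values were 103 and 71.1 CPM in KO3, against 17.99, 31.5, 35.8 and 47.7 CPM in KO2. The lines did not overlap at any of the 4 times, and the distance from the chromosome median was 0.74 (limma adjusted p = 3.69e-05). Its neighbours Hmgxb4 and Mcm5 were at 0.49 ± 0.07 and 0.12 ± 0.08. The core of the antioxidant response element bound by NRF2, TGACNNNGC on either strand, was in 22.2% of the members' promoter windows and in 12.4% of all windows. The Nqo1 window held no match to these letters, and Hmox1 had no window to search. The members' windows were also richer in G and C, with a median of 62.7% against 52.7%.

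Dlc1, a GTPase-activating protein that switches off RhoA (chr8:36567751-36953143, reverse strand), fell in WT from 2iL to AloXR day 5 by 3.90 ± 0.26 on the log2 scale (limma adjusted p = 2.54e-16). On day 1 it had 79.0, 82.7, 75.8 and 80.6 CPM in KO3, against 35.4, 29.2, 36.8 and 18.5 CPM in KO2. On day 3 it had 35.0 and 30.7 CPM in KO3, against 10.5, 8.07, 6.88 and 10.5 CPM in KO2. The lines did not overlap on these days, and they overlapped in 2iL, where KO3 had 69.4, 86.1 and 124 CPM and KO2 had 52.6, 63.3 and 89.6 CPM. The distance from the chromosome median was 0.84 (limma adjusted p = 7.92e-06). Apela, the hormone that activates the apelin receptor (chr8:65028417-65037336, reverse strand), also fell in WT by day 5, by 3.56 ± 0.28 (limma adjusted p = 2.95e-13). It had 60.2 and 60.3 CPM in KO3, against 29.9, 23.2, 31.1 and 24.2 CPM in KO2 on day 3, without overlap, and on day 5 the lines came closest, with the lowest KO3 library at 37.59 CPM and the highest KO2 library at 37.56 CPM. Its distance was 0.73 (limma adjusted p = 0.000246).

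Zfhx3, a homeobox and zinc finger transcription factor (chr8:107942644-108961630, forward strand), had 124 and 103 CPM in KO3, against 54.6, 38.6, 57.3 and 55.3 CPM in KO2 on day 3. The lines were apart there and overlapped in 2iL, with 27.8 to 57.0 CPM in KO3 and 16.9 to 34.1 CPM in KO2. Its distance was 0.73 (limma adjusted p = 1.27e-05). Fat1, an atypical cadherin (chr8:44935447-45052257, forward strand), had 172, 164, 116 and 147 CPM in KO3, against 69.3, 89.2, 75.7 and 25.1 CPM in KO2 on day 1, without overlap, with a distance of 0.62 (limma adjusted p = 0.000668). Irf2bp2, a transcriptional corepressor (chr8:126588296-126593986, reverse strand), had 49.8, 49.2, 41.6 and 36.1 CPM in KO3, against 23.3, 23.5, 19.3 and 14.99 CPM in KO2 on day 1, also without overlap. Its distance was 0.60 (limma adjusted p = 0.00138). The calls of Fat1 and Irf2bp2 sat near the size limit and were lost under some alternatives. Marker sums moved as well: on day 3 primitive endoderm markers were at 48.4 to 49.6 CPM in KO3 and 8.45 to 17.2 CPM in KO2, trophoblast markers at 65.4 to 69.8 CPM in KO3 and 37.2 to 58.2 CPM in KO2, and fibroblast markers at 23.1 to 26.7 CPM in KO3 and 56.6 to 103.5 CPM in KO2. Their part in the values of these genes was not tested.

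**Figure D4:**
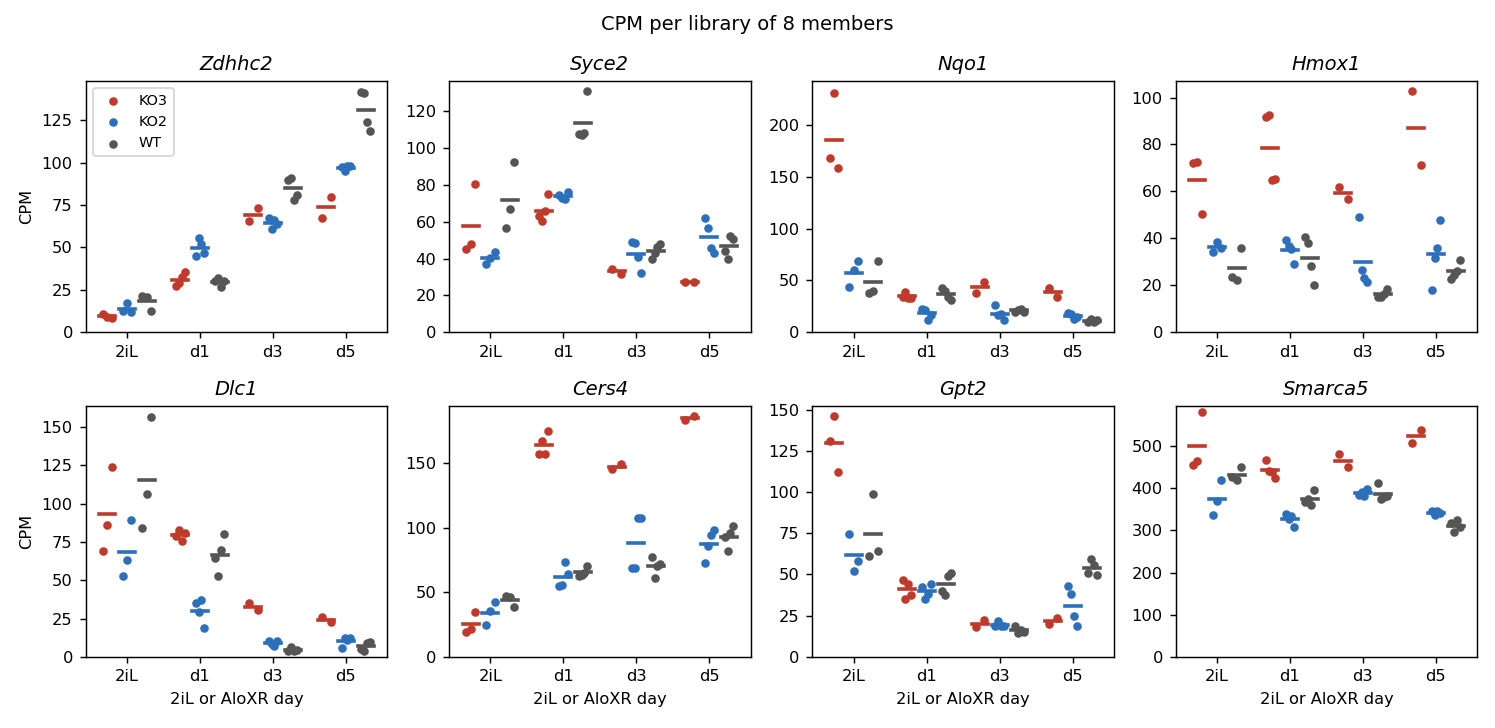
CPM in each library of 8 members (1 point per library, a line at each group mean) in KO3, KO2 and WT, by medium and day, with each axis starting at 0. Zdhhc2 (apart from day 3) and, on day 5, Syce2 are lower in KO3 than in KO2, and Nqo1, Hmox1 and Dlc1 are well above. Cers4 changes its order between 2iL and AloXR. Gpt2 is higher in KO3 in 2iL, close to KO2 on days 1 and 3, and lower in its mean on day 5. Smarca5 shows the level near the chromosome median.

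The choice of control line mattered for single genes. With WT in place of KO2, an alternative added after seeing the data, the distance from the chromosome median was 0.30 for Zfhx3 (limma adjusted p = 0.0428) and 0.01 for Irf2bp2 (limma adjusted p = 0.964), and neither was called. Irf2bp2 was lower in KO2 than in WT by 0.58 ± 0.13 (limma adjusted p = 0.000372) and in KO3 minus WT it was at 0.38 ± 0.14. With WT as the control line Triml2 and Dusp4 were called above, at 1.03 and 1.06, along with Nqo1, Hmox1, Dlc1, Apela and Fat1 (3.03% of the members, against 9.18% of all genes tested).

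Whether a member held its difference through the course was tested as the KO3 minus KO2 difference on an AloXR day minus that in 2iL. By limma's test 23 members changed at 1 day or more, 9.96% of the members against 11% of all genes tested. As signed values, the differences on day 1 were higher than in 2iL for 4 members and lower for 5 (2.47% and 1.07% of all genes), on day 3 for 4 and 4 (3.09% and 0.731%) and on day 5 for 5 and 10 (5.5% and 2.33%). Across members the KO3 minus KO2 differences of AloXR days resembled each other (Pearson's r of 0.66 between days 1 and 3, and 0.59 between days 3 and 5) more than they resembled 2iL (0.37, 0.32 and 0.17 with days 1, 3 and 5). These are descriptions over 231 genes that share libraries.

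Cers4, a ceramide synthase (chr8:4493026-4531680, forward strand), was the member with the largest change on day 1. In 2iL it had 18.9, 21.8 and 34.3 CPM in KO3, against 24.5, 35.7 and 42.1 CPM in KO2, with an overlap. On day 1 it had 157, 167, 157 and 175 CPM in KO3, against 55.0, 55.4, 73.6 and 64.3 CPM in KO2, and on day 5 it had 183 and 186 CPM in KO3, against 72.2, 85.9, 94.2 and 97.8 CPM in KO2. The lines were apart on every AloXR day. The change against 2iL was 1.84 ± 0.23 on day 1 (limma adjusted p = 1.13e-06), 1.21 ± 0.25 on day 3 and 1.52 ± 0.25 on day 5.

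Kcnk1, a potassium leak channel (chr8:125995170-126030685, forward strand), had 6.90, 4.61 and 1.39 CPM in KO3, against 11.4, 10.3 and 5.65 CPM in KO2 in 2iL, with an overlap. On day 5 it had 138 and 103 CPM in KO3, against 68.5, 82.6, 79.3 and 86.1 CPM in KO2, without overlap. The change on day 5 was 1.64 ± 0.39 (limma adjusted p = 0.00683), a call lost without the first KO3 library of day 5, when the change was 1.43, and with only libraries 1 and 2 of each AloXR group (limma adjusted p = 0.0617). It rose in WT by 3.30 ± 0.25 between 2iL and day 5 (limma adjusted p = 1.04e-13). The difference of Dlc1 increased by 1.34 ± 0.40 on day 3 (limma adjusted p = 0.0474) and that of Cotl1, an actin-binding protein, by 1.31 ± 0.38 on day 1 (limma adjusted p = 0.0473). Both calls sat at the threshold and were lost in most leave-one-out fits.

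Other members had a difference that was lower in AloXR than in 2iL. Gpt2, a mitochondrial alanine aminotransferase (chr8:85492576-85527560, forward strand), had 131, 146 and 112 CPM in KO3, against 74.8, 52.1 and 58.2 CPM in KO2 in 2iL, without overlap. On day 1 it had 46.8, 35.2, 43.9 and 37.5 CPM in KO3, against 42.2, 34.9, 38.2 and 44.4 CPM in KO2, with an overlap, and on day 5 it had 20.05 and 23.3 CPM in KO3, against 42.8, 38.1, 24.9 and 18.4 CPM in KO2. Its change against 2iL was -1.04 ± 0.26 on day 1, -1.02 ± 0.28 on day 3 and -1.50 ± 0.28 on day 5 (limma adjusted p = 0.000564). Aars, the alanyl-tRNA synthetase (chr8:111033144-111057664, forward strand), had 701, 490 and 408 CPM in KO3, against 286, 229 and 252 CPM in KO2 in 2iL. Its day 1 values were 182, 186, 179 and 183 CPM in KO3, against 170, 159, 159 and 162 CPM in KO2. The KO3 libraries were above in both, but the difference was 1.02 in 2iL and 0.17 on day 1, a change of -0.86 ± 0.19 (limma adjusted p = 0.00472).

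Herpud1, which acts in degradation of misfolded proteins at the endoplasmic reticulum (chr8:94386438-94395377, forward strand), had 85.6, 78.5 and 54.6 CPM in KO3, against 39.1, 33.5 and 29.5 CPM in KO2 in 2iL, without overlap. Its change on day 1 was -0.78 ± 0.22 (limma adjusted p = 0.0372). Eif4ebp1, an inhibitor of cap-dependent translation, changed by -0.70 ± 0.19 on day 5 (limma adjusted p = 0.015). In the mean of 4 times they were at 0.18 ± 0.10, 0.36 ± 0.07, 0.24 ± 0.06 and 0.52 ± 0.08 in the order Gpt2, Aars, Eif4ebp1 and Herpud1.

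The promoter windows of Aars and Herpud1 are shown because both hold a match to the amino acid response element TGATGNAA. Both genes had a large difference in 2iL and a lower one in AloXR, as did Gpt2, whose window is not shown. The motif was searched on both strands and is marked in capitals, here read on the reverse strand. It occurred in 2.46% of the 203 member windows and 3.97% of all 32851 windows. Besides Aars and Herpud1 it was found for Gse1, whose difference was higher on day 5 than in 2iL, and for Arl2bp and Atp6v0d1, which were not called for a change with time. The windows lie at chr8:111033592-111033891 and chr8:94386179-94386478, both on the forward strand (RefSeq, GRCm38.p6). The Gpt2 window held no match, and Eif4ebp1 had no window to search.
Aars promoter: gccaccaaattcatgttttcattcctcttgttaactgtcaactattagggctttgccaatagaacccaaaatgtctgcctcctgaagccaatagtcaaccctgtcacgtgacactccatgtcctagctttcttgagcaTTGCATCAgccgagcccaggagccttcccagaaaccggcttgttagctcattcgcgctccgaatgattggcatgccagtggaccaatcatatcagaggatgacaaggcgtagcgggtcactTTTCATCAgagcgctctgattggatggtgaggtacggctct
Herpud1 promoter: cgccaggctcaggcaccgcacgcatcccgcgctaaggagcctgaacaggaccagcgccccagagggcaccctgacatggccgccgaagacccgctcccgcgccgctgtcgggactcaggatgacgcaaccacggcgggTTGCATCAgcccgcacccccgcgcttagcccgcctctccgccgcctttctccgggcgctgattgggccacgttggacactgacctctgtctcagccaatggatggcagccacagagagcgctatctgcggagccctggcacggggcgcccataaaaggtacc

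For Syce2, Palld and Psmb10 the sign of the difference turned. Syce2 was at 0.46 in 2iL and -0.88 on day 5 (change -1.35 ± 0.25, limma adjusted p = 0.000354). Palld, an actin cross-linking protein, was at 0.70 in 2iL and -0.29 on day 1 (change -0.99 ± 0.19, limma adjusted p = 0.00116), and Psmb10 at 0.30 and -0.76 (change -1.06 ± 0.24, limma adjusted p = 0.00773). Leprotl1, Ufsp2, Smim7, Usb1, Prmt7, Cmip and Pard3 had lower differences than in 2iL at 1 or 2 days. Higher differences were also found for Gse1, Arglu1 and Ttc13 on day 5, Gins2 on day 3 and Zfhx3 on day 1. In 2iL the KO3 values rest on 3 libraries that spread widely, and leaving out the first of them gave 10 changing members, against 43 without the third.

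**Figure D5:**
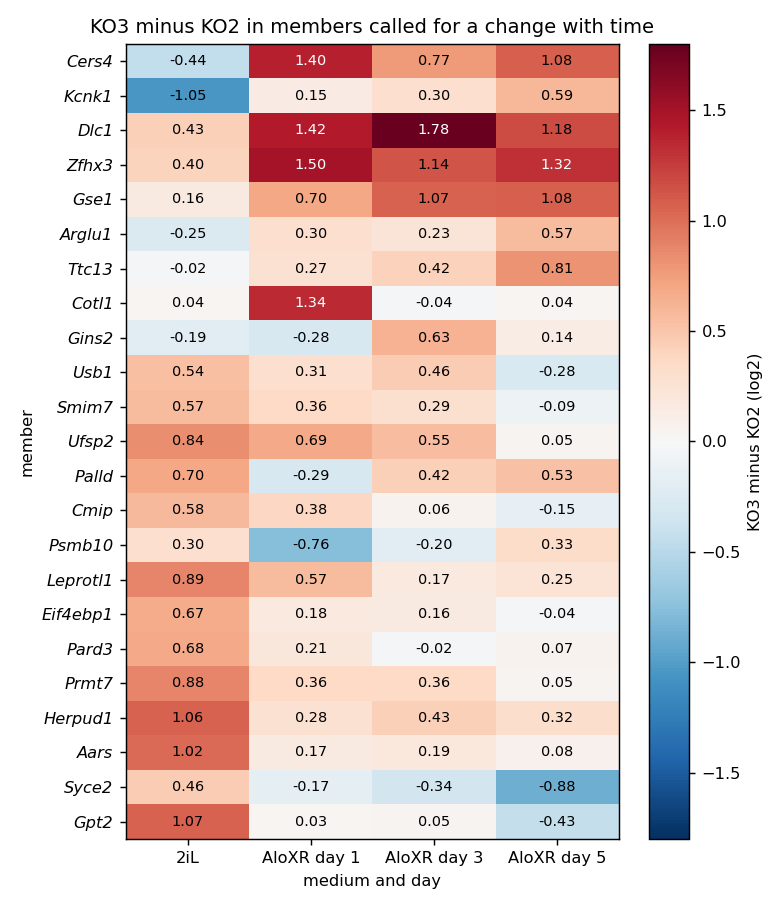
KO3 minus KO2 difference (log2, colour and number) of the 23 members called for a change with time, in 2iL and on AloXR days 1, 3 and 5, ordered by the mean AloXR difference minus that in 2iL. Cers4 shows -0.44 in 2iL and 1.40 on day 1, and Gpt2 1.07 in 2iL and -0.43 on day 5.

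KO2 served as the control line, and in it the members as a group lay near WT. The median KO2 minus WT difference was -0.09 in 2iL, -0.09 on day 1, 0.15 on day 3 and 0.12 on day 5, and 0.01 in the mean of 4 times. Higher in KO2 were 5 members (2.16%, against 5.88% of all genes tested) and lower were 2 (0.866%, against 5.8%). For comparison, the KO3 minus WT median was 0.25, 0.29, 0.44 and 0.51 at the 4 times in the same order and 0.37 in their mean. The difference from WT was thus higher on days 3 and 5 in both lines, while KO3 minus KO2 stayed between 0.33 and 0.38.

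Dusp4, a phosphatase that inactivates MAP kinases, was higher in KO2 by 0.87 ± 0.25 (limma adjusted p = 0.00604). That mean rests on days 3 and 5: the difference was -0.39 in 2iL, -0.42 on day 1, 1.52 on day 3 and 2.78 on day 5. On day 5 it had 31.4, 29.3, 23.8 and 27.1 CPM in KO2, against 2.40, 2.77, 4.55 and 3.27 CPM in WT, without overlap. In the mean Triml2 was higher by 0.72 ± 0.11 (limma adjusted p = 1.74e-06), Apela by 0.71 ± 0.13 (limma adjusted p = 4.52e-05), the adhesion scaffold Bcar1 by 0.64 ± 0.08 (limma adjusted p = 7.08e-08) and Acta1, skeletal muscle actin, by 0.63 ± 0.17 (limma adjusted p = 0.00285). The sign of the difference was not the same at all times for Triml2, Apela and Acta1. Triml2 was at -0.39, -0.24, 2.34 and 1.15 in 2iL and on days 1, 3 and 5, and Apela at -0.67, 0.36, 1.70 and 1.46. Bcar1 was at 1.02, 0.04, 0.55 and 0.93, and Acta1 at 1.51, 1.10, 0.28 and -0.36. With only libraries 1 and 2 of each AloXR group, an alternative added after seeing the data, the calls of Dusp4 (limma adjusted p = 0.0561) and Acta1 (limma adjusted p = 0.171) were lost. In KO3 minus KO2 Dusp4, Triml2, Apela, Bcar1 and Acta1 were at 0.55 ± 0.28, 0.68 ± 0.13, 1.09 ± 0.15, 0.31 ± 0.09 and 0.14 ± 0.19.

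Ifi30, a lysosomal thiol reductase, and Colgalt1, a galactosyltransferase of collagen, were lower in KO2 than in WT. Ifi30 fell by 0.86 ± 0.17 on the log2 scale (limma adjusted p = 0.000122) and Colgalt1 by 0.66 ± 0.06 (limma adjusted p = 4.07e-13). The Ifi30 call was lost with only libraries 1 and 2 of each AloXR group (limma adjusted p = 0.0616). Colgalt1 had 61.9, 56.8 and 55.7 CPM in KO2, against 198, 189 and 132 CPM in WT in 2iL, without overlap, and 126, 93.95 and 105 CPM in KO3. In KO3 minus KO2 they were at 0.78 ± 0.19 and 0.75 ± 0.06, and in KO3 minus WT at -0.08 ± 0.19 and 0.09 ± 0.06. Both were thus among the 19 members at 0.72 or more against KO2. Against WT their means near 0 held opposite signs over time. Ifi30 had 72.2 and 72.7 CPM in KO3 on day 3, against 36.5 to 48.2 CPM in WT. On day 5 it had 55.1 and 51.6 CPM in KO3, against 68.9 to 90.5 CPM in WT. In 2iL Colgalt1 was lower in every KO3 library than in WT. Its day 5 values were 76.6 and 68.8 CPM in KO3, against 47.6 to 54.1 CPM in WT. KO3 minus KO2 shares the KO2 libraries with KO2 minus WT and the KO3 libraries with KO3 minus WT.

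In WT the members had courses of their own. Against 2iL, 46 were higher and 31 lower on AloXR day 1 (17.8% and 18.7% of all genes tested), 34 and 50 on day 3 (21% and 20.6%) and 24 and 37 on day 5 (22.7% and 16.6%). Bcar1 rose by 2.89 ± 0.18 by day 5 (limma adjusted p = 1.11e-17), and Triml2 fell by 7.23 ± 0.24 on the log2 scale (limma adjusted p = 2.95e-28), with 0.00, 0.198, 0.227 and 0.00 CPM on day 5, against 144, 171 and 179 CPM in 2iL. A fold of a gene at 0 in some libraries depends on the pseudocount of 1 CPM.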

How the data were processed

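Libraries were made from total RNA with a QuantSeq 3′ mRNA kit, per the labels' protocols. The authors deposited 1 table of CPM per gene and library; per the submitters' processing notes it rests on STAR 2.7.6a, featureCounts 2.0.1 (Subread) and GRCm38, and the annotation and strand setting are not given in the sources used here. Dividing by the value of 1 read gave whole reads for 100% of the 766190 values above 0 (within 0.01 reads), and the depth comes from these. Genes were placed by GENCODE M21.

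A gene was tested at 1 CPM or more in at least 3 libraries (16967 genes). Shares of all genes tested therefore include genes below 40 CPM and are not matched to the members for level. limma 3.58.1 (R 4.3.3) was fitted to log2(CPM + 1) with 1 mean per group over all 41 libraries and 12 groups, mean-dependent trend and robust variances, 29 residual degrees of freedom and Benjamini-Hochberg adjustment over all genes tested. Fold changes are on the log2(CPM + 1) scale, which understates the change of low genes. Called means an adjusted p below 0.05 and at least 1.5-fold. A chromosome median covers its genes of at least 40 CPM. The fits were tested on simulated data with independent libraries, which cannot show whether the p-values hold if libraries of a group are related. edgeR 4.0.16 and DESeq2 1.42.0 on the recovered reads were alternatives, with other pseudocounts, filters, normalizations, control line and left-out libraries.

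No 2 libraries of a group agreed within sampling noise (lowest chi-square per degree of freedom 1.60). Replicate numbers follow accession order and were not used to pair libraries. By the same measure libraries 1 and 2, and 3 and 4, of KO3 on day 1 were closer (1.60 and 2.55) than the other pairs (3.36 to 5.31), and so were those of WT; in KO2 this held for libraries 1 and 2. No label names such sets. Libraries may therefore not be independent, and p-values may be too small. KO3 has only libraries 1 and 2 on days 3 and 5, so the fit was repeated with only these of each AloXR group. The members and lists were chosen with earlier results of these data known. Named are all members called apart, the 8 with highest mean CPM within 0.1 of the chromosome median, 6 called for a change with time, those called in KO2 against WT, the 2 with highest mean CPM in each list, and the 2 on each side of the 40 CPM limit; other names were chosen after their values were seen. One result under this rule is not reported here. Overlapping another tested gene were 68 members, 36 of them a gene with at least 0.1 of their own CPM; their reads may not be fully separated.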

Additional observations from a re-analysis of the deposited data

Results flagged for a closer look

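Of 343 groups of 4 values examined, from 47 named members and 2 summaries over all members, 16 held a library far from the other 3 of its group, where chance flags about 1 in 20. In KO3 it was Calr on day 1 (highest 1105 CPM, others 979.7 to 990.5 CPM). In KO2 these were Ankrd11 on day 1 (highest 832.4 CPM, others 655.7 to 674.6 CPM), Calr on day 3 (lowest 712.6 CPM, others 843.1 to 868.1 CPM), Cfdp1 on day 1 (highest 561.6 CPM, others 402.9 to 415.5 CPM), Cotl1 on day 3 (lowest 48.15 CPM, others 55.65 to 57.02 CPM), Ddx39 on day 1 (lowest 268.8 CPM, others 312.5 to 320.9 CPM), Gpt2 on day 3 (highest 21.45 CPM, others 18.50 to 18.81 CPM), Hmgb2 on day 1 (highest 887.1 CPM, others 613.5 to 657.9 CPM), Irf2bp2 on day 5 (highest 33.47 CPM, others 23.38 to 25.08 CPM) and Zfhx3 on day 3 (lowest 38.60 CPM, others 54.59 to 57.32 CPM). In WT these were Cdt1 on day 5 (highest 161.7 CPM, others 137.8 to 141.4 CPM), Ing1 on day 3 (lowest 339.9 CPM, others 400.3 to 409.9 CPM), Itgb1 on day 5 (highest 252.8 CPM, others 216.0 to 221.0 CPM), Smarca5 on day 3 (highest 413.0 CPM, others 375.6 to 381.7 CPM), Syce2 on day 1 (highest 131.3 CPM, others 107.2 to 108.3 CPM) and Zfhx3 on day 3 (lowest 53.48 CPM, others 64.04 to 65.31 CPM).

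The KO3 minus KO2 difference on an AloXR day differed from that in 2iL by limma's test for 6 named members (log2). Cers4 changed by 1.84 on day 1, 1.21 on day 3 and 1.52 on day 5, and Kcnk1 by 1.20, 1.345 and 1.64 on the same days. Gpt2 changed by -1.04, -1.02 and -1.50 on those days. Syce2 changed by -1.35 on day 5, Dlc1 by 1.34 on day 3 and Cotl1 by 1.31 on day 1.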

How the results depend on the processing

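The members' median KO3 minus KO2 difference of 0.36 lay between 0.33 and 0.37 under the pseudocounts, filters, scalings, tools, member limits and left-out libraries tried (0.33 with quantile normalization, 0.35 with edgeR, 0.34 with DESeq2; 0.348 to 0.371 with single libraries left out). No value of at least 1.5-fold in the main fit changed direction. Small values did: with single libraries left out, the mean KO3 minus KO2 difference ranged from -0.09 to 0.12 for Kcnk1. It ranged from -0.06 to 0.11 for Mt1 and from -0.02 to 0.25 for Acta1. No paired analysis was possible because the columns carry no replicate number. Leaving out single libraries gave 33 to 42 members higher in KO3 than KO2, 1 to 2 below and 6 to 9 above the chromosome median, 10 to 43 changing with time, 4 to 7 higher and 2 to 4 lower in KO2 than WT. Members changing with time numbered 13 without KO3 day 5 replicate 1, 10 without KO3 2iL replicate 1, 43 without KO3 2iL replicate 3, 35 without the third 2iL library of each line and 14 with no filter, where more genes were tested. Lower in KO2 than WT were 4 without KO2 2iL replicate 1. Below the chromosome median was 1 member with a pseudocount of 5 CPM, with the 20 nearest members as the baseline, with edgeR and with DESeq2, and without KO2 day 1 replicate 4, KO3 day 1 replicate 2, KO2 day 3 replicates 1 and 2, KO3 day 3 replicate 2, KO2 day 5 replicates 1 and 2, KO2 2iL replicate 3 and KO3 2iL replicates 1 and 2. The Syce2 call was lost in these settings and also without KO3 day 5 replicate 1. With only libraries 1 and 2 of each AloXR group the median was 0.34, with 3 below, 8 above, 18 changing with time, and 4 higher and 3 lower in KO2 than WT; the calls of Irf2bp2, of Kcnk1, Dlc1 and Cotl1 with time, and of Dusp4, Acta1 and Ifi30 in KO2 against WT were lost. With no size minimum 37 lay below and 44 above. Members of at least 20 CPM gave 69 higher in KO3 than KO2, 12 above the chromosome median, and 9 higher and 7 lower in KO2 than WT. Members of at least 80 CPM gave 13 higher in KO3, 0 below and 0 above, 7 changing with time, 1 higher and 0 lower in KO2 than WT. A pseudocount of 5 CPM left 2 higher in KO2 than WT. Of the rest, 18 of 41 single-library omissions kept the Dlc1 call with time, 9 of 41 the Cotl1 call, 34 of 41 the Irf2bp2 call and 39 of 41 the Fat1 call. Apart from fewer or more genes and samples, the cause was not tested. KO3 on days 3 and 5 has 2 libraries each, which limits small differences. A value of 40 CPM is 137 reads in the library with fewest reads. Some members have far fewer in single libraries, such as Triml2 at 0.00 CPM in WT on day 5.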
